A study of Macaca fascicularis with 2 samples.

Results

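Among the double positive (DP) T cells, positive for both CD4 and CD8, in the blood of 1 cynomolgus monkey (*Macaca fascicularis*), 150 cells carried RNA of *MKI67*, which encodes the proliferation antigen Ki-67, or of *TOP2A*, which encodes the topoisomerase that untangles replicated DNA. They were 2.02% (interval 1.71 to 2.37%) of the 7417 T cells. They were chosen by raw UMIs, the unique molecular identifiers that count captured RNA molecules. A cell needed at least 1 UMI of *MKI67* or *TOP2A*, called a marker UMI from here on, at least 1 UMI of *CD3E*, which encodes a chain of the T cell receptor complex, and none of *CD79A*, which encodes a chain of the B cell receptor. The other 7267 T cells passed the same conditions on *CD3E* and *CD79A* and had no marker UMI. The levels of these 4 genes made the groups and are given as a description only.

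The animal was 10 years old and untreated. Mononuclear cells of its fresh peripheral blood were enriched for CD4 and then for CD8 with magnetic beads, and the study asked which kinds of cell the circulating DP T cells comprise. Droplet libraries of gene UMIs and of CD4 and CD8α antibody tags were made from the same cells, 1 of each kind, so there are no replicates and no difference below has a test across animals. Of 8953 barcodes, all distinct, 8830 were kept, with 31677119 gene UMIs, after those outside 200 to 4000 detected genes or over 20% in mitochondrial UMIs were left out. All intervals are exact 95% intervals, Poisson for summed UMIs and Clopper-Pearson for shares, and cover counting error only, neither differences between animals nor between cells of a group.

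A dividing cell copies its DNA in S phase, with licensing factors such as the MCM proteins and enzymes that supply nucleotides, and then builds the spindle in G2 and mitosis under CDK1 and its cyclins. Most T cells in blood are resting, and a cell with Ki-67 is taken as having left rest. Granzyme B (*GZMB*) is a protease of cytotoxic cells, *CCR7* guides naive and central memory T cells into lymph nodes, and *FOXP3* is the transcription factor of regulatory T cells.

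The cells with a marker UMI were more deeply sequenced than the others. They had a median of 4328 gene UMIs (1258 to 22369), against 3111 (536 to 17221) in the other T cells, and a median of 1628 detected genes against 1116. The share of T cells with a marker UMI went up with depth, from 0.431% (6 of 1393) below 2500 UMIs to 3.06% (53 of 1730) between 3500 and 5000 UMIs and to 18.6% (24 of 129) at 8000 UMIs or more. The kinds of cell are therefore compared below at a fixed depth and within ranges of depth.

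Most of the 150 cells qualified on a single molecule. *MKI67* had 160 UMIs in 86 cells and *TOP2A* 108 UMIs in 83 cells, and 19 cells had both. The marker UMIs came to 1 in 111 cells, to 2 in 23 cells and to at least 3 in 16 cells, up to 20 in a single cell. Cells with 1 marker UMI sat just inside the rule and are described apart from the others where this changes a value.

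Whether these cells carried other RNA of the cell cycle was read from genes that the rule did not use, namely 43 genes of S phase and 58 of G2 and mitosis, both lists without *MKI67* and *TOP2A*. The summed UMIs of both lists per 1000000 gene UMIs (CPM) were set against a threshold of 2204 CPM, the 99th percentile of the other T cells. Only 30 of the 150 cells (20%, interval 13.9 to 27.3%) lay above it, or 0.404% of all T cells. These 30 held 11248 CPM (10821 to 11689) of the lists together. The 120 below held 832 (761 to 908), against 627 (617 to 637) in the other T cells and 1196 in 129 *CD79A*+ *CD3E*- cells. Among cells with a *GZMB* UMI alone, those below the threshold held 990 and those without a marker UMI 917. The label "cycling" was thus matched by other cell cycle RNA in a minority, and the rest are called here cells with a marker UMI below the threshold.

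The 30 cells were well apart from most of the others. Their CPM ranged from 2255 to 22259 with a median of 10434, on 3 to 292 list UMIs per cell (median 76.5), and 22 of them stood above 7000, at 7004 or more. The next cell was at 4114. Near the threshold the separation was gradual, with the lowest cell above it at 2255, the highest below it at 2133, and 7 cells between 0.8 and 1.25 times its value. The number of marker UMIs went along with the lists: 10 of the 111 cells with 1 marker UMI, 5 of 23 with 2 and 15 of 16 with at least 3 lay above the threshold. Among the other T cells, 73 were above it, which is 1% by construction, and 25 of these had at least 10 list UMIs. The rule therefore did not take in all T cells with cell cycle RNA.

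**Figure D1:**
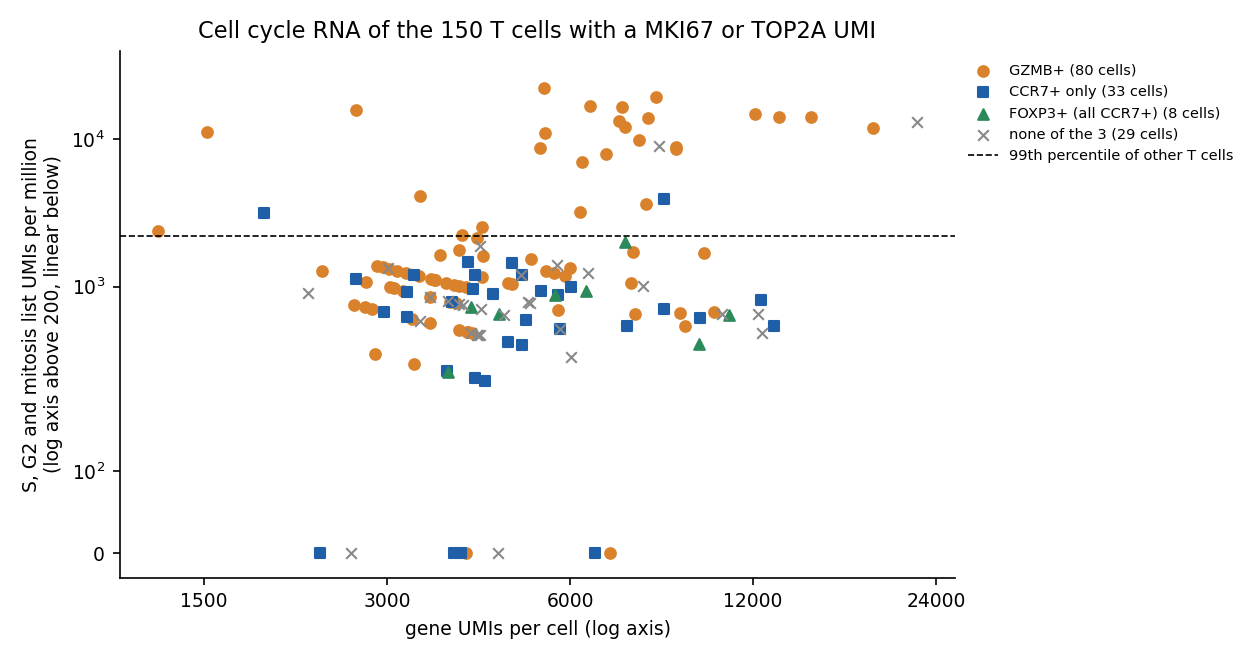
Summed UMIs of the S phase and the G2 and mitosis lists per 1000000 gene UMIs of the cell (log axis above 200) against gene UMIs per cell (log axis), 1 point for each of the 150 cells, with symbols for the cells with a *GZMB* UMI, a *CCR7* UMI only, a *FOXP3* UMI, or none of these. Above the dashed line, the threshold of 2204, sit 30 cells, of which 26 had a *GZMB* UMI, while no cell with a *FOXP3* UMI lies there.

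Most of the 30 cells held RNA of both phases. The S phase list made up 0 to 100% of the list UMIs of a cell, with a median of 56.8%. It was over 80% in 5 cells, under 20% in 5 cells and between these in 20, and 27 cells had UMIs of both lists. Since both lists set the threshold, the levels of their genes in the 30 cells are a description. Among S phase genes, *RRM2*, a subunit of the enzyme that makes deoxyribonucleotides, had 180 UMIs in 21 of the 150 cells. *TYMS*, the thymidylate synthase, had 97 UMIs in 21 cells, and *TK1*, a thymidine kinase, had 30 UMIs in 17 cells, all above the threshold. *PCNA*, the sliding clamp of the replication fork, was more widespread, with 148 UMIs in 46 cells. Of the G2 and mitosis genes, *CCNA2*, which encodes cyclin A2, had 60 UMIs in 14 cells, all above the threshold, and *UBE2C*, an enzyme that marks mitotic cyclins for removal, had 55 UMIs in 13 cells.

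**Figure D2:**
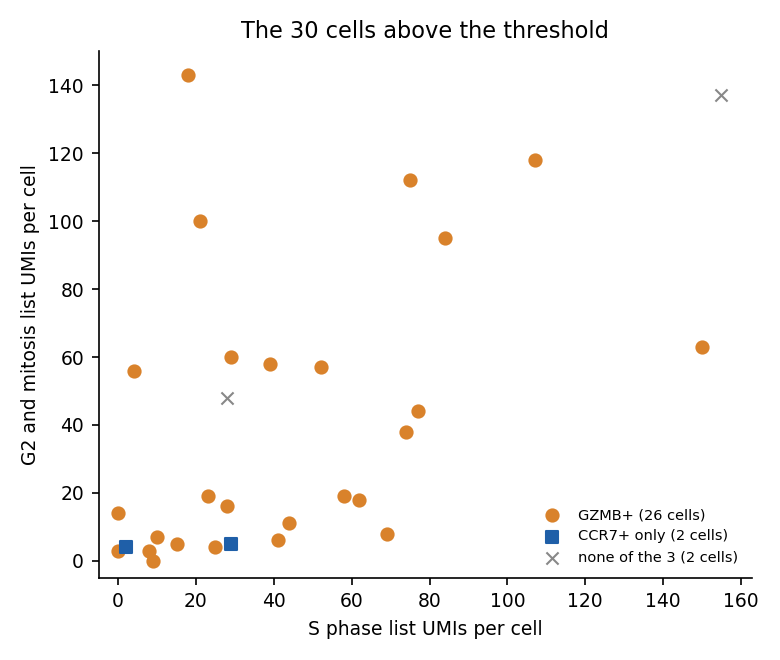
UMIs of the G2 and mitosis list against UMIs of the S phase list per cell, 1 point for each of the 30 cells above the threshold. The cells spread over both axes, with 27 of 30 carrying UMIs of both lists.

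Across all 150 cells, replication and mitosis genes were higher and naive T cell genes lower than in the other T cells. Of 9744 genes that reached 50 UMIs in the sum of both groups, 8.75% were at least 2-fold higher and 6.58% at least 2-fold lower in pooled CPM, with a median log2 ratio of 0.15. By the same measure, 24 of 29 S phase genes and 24 of 27 G2 and mitosis genes were at least 2-fold higher and none was 2-fold lower. The S phase list stood at 1922 CPM (1830 to 2019) against 368, and the G2 and mitosis list at 1796 (1706 to 1889) against 259. The log2 ratio was 8.23 for *RRM2*, 7.97 for *CDC6*, which loads the MCM helicase onto origins, 3.40 for the helicase subunit *MCM5* and 2.64 for *PCNA*. For G2 and mitosis it was 10.69 for *UBE2C*, 8.99 for *SPC25*, a kinetochore protein, and 5.33 for *CDK1*.

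The genes outside the lists with the highest ratios were mostly of the same kind. They were *PKMYT1*, a kinase that holds CDK1 inactive until mitosis (log2 ratio 7.32, with 48 UMIs in 18 cells, all above the threshold), the mitotic kinesins *KIFC1* (4.91) and *KIF22* (2.50), the centromere genes *CENPM* (4.88), *CENPN* (4.30) and *CENPW* (3.92), *CDKN2B* (2.65), *CDCA7* (2.63), the condensin subunit *NCAPG2* (2.60) and the DNA damage histone *H2AX* (2.56). The 10 lowest were *BEX3* (-3.26), *PDE6H* (-2.72), *CA6* (-2.67), *BEX4* (-2.45), *RCN3* (-2.43), *SORBS3* (-2.32), *RFLNB* (-2.09), *SFRP5* (-1.96), *ACP5* (-1.85) and *EVA1C* (-1.83).

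The 120 cells below the threshold, taken alone, kept the difference in T cell genes, while their cell cycle lists were higher by less than 2-fold. Of 7402 genes that reached 200 UMIs, 3.63% were at least 2-fold higher and 4.5% at least 2-fold lower in them. None of 13 S phase genes and none of 7 G2 and mitosis genes was at least 2-fold higher, and 1 S phase gene was at least 2-fold lower. Pooled, the S phase list stood at a log2 ratio of 0.29 (0.11 to 0.46). The G2 and mitosis list stood at 0.56 (0.37 to 0.75). The threshold itself keeps these lists low here. Cytotoxic genes were at least 2-fold higher in 6 of 16, with *GZMA* at a log2 ratio of 2.11, and naive genes at least 2-fold lower in 4 of 6, with *TCF7* at -1.16.

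The T cell genes set the 150 cells apart from the other T cells on the side of cytotoxic and against naive cells. All 6 naive genes were at least 2-fold lower, with log2 ratios of -1.54 and -1.46 for the transcription factors *TCF7* and *LEF1*, -1.43 for *PECAM1*, -1.35 for *CCR7* and -1.19 for *CD7*. Of 17 cytotoxic genes, 10 were at least 2-fold higher and none 2-fold lower. *GZMA*, a second granzyme, led them at 2.57, followed by the transcription factor *EOMES* at 1.80. The log2 ratio was 1.46 for *CX3CR1*, a chemokine receptor of blood effector cells, 1.04 for *GZMB* and 0.98 for *PRF1*, which encodes the pore-forming perforin.

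In most other lists of T cell kinds and activation some genes were at least 2-fold higher. Of 4 follicular helper genes 3 were, among them *PDCD1* (1.56) and *CXCR5* (1.34), and of 4 Th1 genes 2, the cytokine *IFNG* (1.98) and the chemokine receptor *CXCR3* (1.37). Of 8 interferon response genes 4 were, with *ISG15* at 1.94, and none of these 3 lists had a gene at least 2-fold lower. Of 8 regulatory genes 3 were at least 2-fold higher, the inhibitory receptor *TIGIT* (1.46), the transcription factor *BATF* (1.30) and the costimulatory receptor *TNFRSF4* (1.01), whereas *FOXP3* itself stood at -0.64. Of 11 activation genes 6 were at least 2-fold higher, with the MHC class II chain *HLA-DRA* at 2.70. Of 5 Th17 genes 2 were at least 2-fold higher, among them the chemokine receptor *CCR6* (1.31), and 1 was at least 2-fold lower. Of 6 innate-like genes 2 were at least 2-fold higher and 1 at least 2-fold lower. Of 5 thymic stage genes 4 were at least 2-fold lower, among them *CD1A* (-2.69) and *DNTT* (-2.53), an enzyme of receptor gene rearrangement, and *RAG1* had 0 UMIs in the 150 cells. Against only those other T cells with more than 3621 gene UMIs, 428 of 8667 genes were at least 2-fold higher and 391 at least 2-fold lower. That limit is the lower quartile of the 150 cells, and depth was not matched beyond it.

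At equal depth, cells with a *GZMB* UMI were in the majority above the threshold. Each cell was thinned to 2200 UMIs, which left out 3 of the 30 cells. A *GZMB* UMI was then found in 85.2% of the cells above the threshold (23 of 27, interval from 66.3%), in 41.7% of those below it (50 of 120) and in 18.8% of the other T cells (1249 of 6650). In *CD79A*+ *CD3E*- cells, which should lack granzyme B, the share was 6.4% (8 of 125), at a median depth of 4517 UMIs. Over both groups of cells with a marker UMI it was 49.7% (73 of 147, interval 41.3 to 58.0%), and without thinning 53.3% (80 of 150). The related genes *NKG7*, of cytotoxic granules, and *GZMA* showed the same order, with 85.2% and 29.6% above the threshold, 48.3% and 15.8% below it, and 21.5% and 3.29% in the other T cells. *PRF1* did not separate the cells at the threshold, with 22.2% above and 23.3% below it, and 9.59% in the other T cells. A single threshold served all T cells, and *GZMB*+ cells passed it more often even without a marker UMI. Of the 73 other T cells above it, 44 were among the 1338 with a *GZMB* UMI. Those 1338 held 917 CPM of the cell cycle lists, against 627 in all other T cells. The part of this in the *GZMB* shares was not tested.

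*CCR7* had the opposite order. After thinning its UMIs were found in 3.70% of the cells above the threshold (1 of 27), in 25% of those below it (30 of 120) and in 51.4% of the other T cells. The share was 8% (10 of 125) in *CD79A*+ *CD3E*- cells, a group like B cells, which can make *CCR7* themselves. Over all cells with a marker UMI it was 21.1% (31 of 147, interval 14.8 to 28.6%), against 7.89% in those with at least 2 marker UMIs and 34% without thinning.

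*FOXP3* was rare in every group. After thinning 2.72% of the cells with a marker UMI had it (4 of 147, interval 0.746 to 6.82%), against 3.37% of the other T cells (224 of 6650), a difference within the interval. Above the threshold it was found in 0 of 27 cells, which allows a share of up to 11.1%, and in *CD79A*+ *CD3E*- cells in 0 of 125, which allows up to 2.4%. A regulatory share among the 30 cells of the size found in the other T cells was therefore not detectable at this depth.

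**Figure D3:**
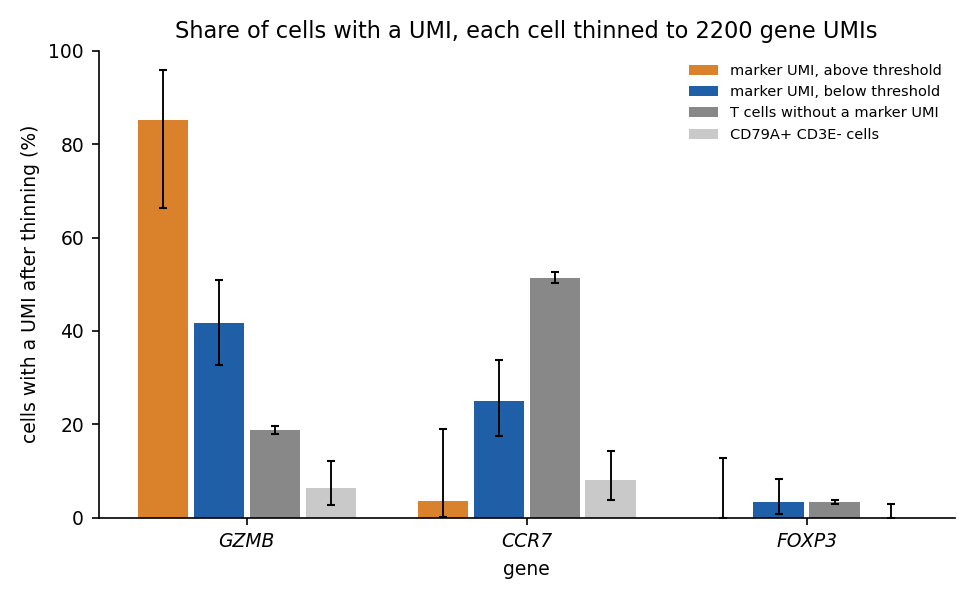
Share of cells with a UMI of *GZMB*, *CCR7* and *FOXP3* after each cell was thinned to 2200 gene UMIs, in cells with a marker UMI above and below the threshold, in T cells without a marker UMI and in *CD79A*+ *CD3E*- cells, with bars for the share and lines for the exact 95% interval. *GZMB* is at 85.2% above the threshold and 18.8% in T cells without a marker UMI, and *CCR7* at 3.70% and 51.4%.

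Without thinning, the 150 cells comprised 70 with *GZMB* only, 10 with *GZMB* and *CCR7*, 33 with *CCR7* only, 8 with *FOXP3* and *CCR7*, and 29 with none of the 3 genes. Above the threshold these were 24, 2, 2, 0 and 2 cells in the same order. *GZMB* was not a matter of single molecules: the *GZMB*+ cells had a median of 22.5 *GZMB* UMIs (1 to 85) above the threshold, 15 (1 to 68) below it and 16 (1 to 71) among the other T cells. Of the 22 cells above 7000 CPM, 20 had *GZMB*. The 4 cells above the threshold that lacked it had 3186 to 13054 CPM of the cell cycle lists and 1 to 19 marker UMIs. The highest of these, at 13054 CPM and 22369 gene UMIs, also held 12 UMIs of *IGKC*, the immunoglobulin κ chain, and the next, at 9026 CPM, held 1 UMI of the B cell list. No other cell above the threshold held B cell list UMIs, and their part in these values was not tested.

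Seen from the kinds of T cell, *GZMB*+ cells most often carried a marker UMI. The kinds were exclusive in this count. *GZMB*+ cells lacked *CCR7* and *FOXP3*, *CCR7*+ cells lacked *GZMB* and *FOXP3*, and *FOXP3*+ cells lacked *GZMB*. After thinning the genes that set the kinds, 68 of 1204 *GZMB*+ cells had one (5.65%, interval 4.41 to 7.11%), and 22 were above the threshold (1.83%, 1.15 to 2.75%). Of 3230 *CCR7*+ cells, 25 had a marker UMI (0.774%) and 0 were above the threshold, which allows up to 0.0929%. Of 220 *FOXP3*+ cells, 4 had a marker UMI (1.82%) and 0 were above it, which allows up to 1.36%. Of 2025 cells with none of the 3 genes, 45 had a marker UMI (2.22%) and 4 were above it (0.198%). Of 118 cells with *GZMB* and also *CCR7* or *FOXP3*, 5 had a marker UMI (4.24%) and 1 was above the threshold. With the marker genes thinned as well, the shares with a marker UMI were 3.07% in *GZMB*+ cells (37), 0.341% in *CCR7*+ cells (11), 0.455% in *FOXP3*+ cells (1) and 1.14% in cells with none (23), so the *GZMB*+ cells stayed first at equal depth.

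In each range of depth the share was higher in *GZMB*+ than in *CCR7*+ *GZMB*- cells, with the smallest ratio at 8000 UMIs or more. Below 2500 UMIs, 3.49% of *GZMB*+ cells (3 of 86) and 0.215% of *CCR7*+ *GZMB*- cells (2 of 930) had a marker UMI. Between 2500 and 3500 UMIs, 3.21% of *GZMB*+ cells (18 of 560) and 0.232% of *CCR7*+ *GZMB*- cells (5 of 2153) had a marker UMI. Between 3500 and 5000 UMIs these were 5.04% (25 of 496) and 1.80% (15 of 832). Between 5000 and 8000 UMIs these were 10.0% (22 of 219) and 3.15% (12 of 381), and 12 and 0 cells were above the threshold. At 8000 UMIs or more they were 21.1% (12 of 57) and 13.5% (7 of 52), with 8 and 1 cells above the threshold. The intervals of these last shares overlap, at 11.4 to 33.9% and 5.59 to 25.8%. *FOXP3*+ cells with a marker UMI were 0 of 26 below 2500 UMIs and 0 of 131 between 2500 and 3500. In the deeper ranges they were 2.75% (3 of 109), 6% (3 of 50) and 15.4% (2 of 13). Each of these shares was above that of the *CCR7*+ *GZMB*- cells, which its interval holds. Cells with none of the 3 genes were not taken by range.

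The 8 *FOXP3*+ cells all lay below the threshold, and the other regulatory genes counted in them were found in few. They had 1 to 3 *FOXP3* UMIs, and 4 of them had 1. Their marker UMIs came to 1 in 5 of the 8, and their cell cycle lists to 265 to 2027 CPM (median 691). *IL2RA*, the high affinity interleukin 2 receptor chain, was found in 2 of the 8 cells, *CTLA4*, *TIGIT* and *TNFRSF4* in 1 each and *IKZF2* in 0. The list genes *TNFRSF18*, *LRRC32* and *BATF* were not counted in these cells. Nor were these genes counted in *FOXP3*+ cells without a marker UMI. The 8 cells were deep, at 3772 to 10943 UMIs (median 6021). The 33 cells with *CCR7* only had a similar median of the cell cycle lists, at 701 CPM (0 to 3967).

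Between the 70 cells with *GZMB* and no *CCR7* and the 41 with *CCR7* and no *GZMB*, the genes with the largest ratios were as follows. Higher in the *GZMB*+ cells were *DHRS7* (111 against 2 UMIs, log2 ratio 5.11), *VOPP1* (4.87), *HOPX*, a cofactor of effector memory cells (128 against 0 UMIs, so at least 4.73), *RGS9* (4.64) and *SERPINA1* (116 against 0 UMIs, at least 4.59). Higher in the *CCR7*+ cells were *SPOCK2* (74 UMIs in 30 cells against 5 UMIs, -4.57), the complement receptor *CR2* (-4.38), *IL6ST*, the shared receptor chain of the interleukin 6 family (-4.38), *APOD* (29 UMIs in 9 cells against 0 UMIs, -3.95 or lower) and *RCAN3* (-3.80). These genes were picked for their ratios, which are a description.

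To set apart the cell cycle from the kind of cell, the *GZMB*+ cells were compared among themselves, with 26 above the threshold, 54 below it and 1338 without a marker UMI. The 26 cells differed from the other *GZMB*+ cells in genes of chromatin, the cytoskeleton and growth, while the 54 differed in fewer genes. The threshold keeps cell cycle RNA low in the 54, whereas 44 of the 1338 lay above it. Small differences of the 54 in genes tied to the cell cycle are therefore partly set by their choice. Their S phase list stood at a log2 ratio of -0.05 (-0.32 to 0.21) and their G2 and mitosis list at 0.29 (0.015 to 0.56). Of 3286 genes that reached 200 UMIs in the sum of both groups, 6.45% were at least 2-fold higher and 6.97% at least 2-fold lower in the 26, whereas of 3311 genes 0.393% were at least 2-fold higher and 2.2% at least 2-fold lower in the 54. Median depths were 7052, 3912 and 3568 UMIs. CPM are shares of a fixed sum, so a gene group that takes a larger share lowers all others.

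Genes of chromatin and tubulin, which were not used for the threshold, were 6.57-fold higher (6.31 to 6.83) in the 26 cells, with 9 of 9 tested genes at least 2-fold higher. All 26 were above the median of the other *GZMB*+ cells and 19 above their 95th percentile. *STMN1*, a regulator of microtubules, stood at 3265 CPM against 129 (log2 ratio 4.66) and was found in 23 of 26 cells. *HMGB2*, a chromatin protein of dividing cells, stood at 1937 against 214 CPM (3.18), and *TUBA1B*, an α-tubulin, at 4907 against 890 (2.46). In the 54 cells the list stood at 0.996-fold, with 28 of 54 above the median and 1 above the 95th percentile, as in *GZMB*+ cells without a marker UMI.

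The growth list, with glycolytic enzymes and nutrient transporters, was 1.88-fold higher (1.76 to 2.01) in the 26 cells, but 842 of its 1002 UMIs were of the glycolytic enzyme *GAPDH*, which stood at 4419 against 2200 CPM and was the 1 gene of 4 tested that was at least 2-fold higher. Without *GAPDH* the list was 1.41-fold higher (1.20 to 1.65). In the 54 cells it was 0.973-fold (0.899 to 1.05). G1 cyclins and kinases were 1.51-fold higher (1.23 to 1.84), with 1 of 2 tested genes at least 2-fold higher, the kinase *CDK4* at a log2 ratio of 1.59. The other, the cyclin gene *CCND3*, stood at -0.01. *E2F2*, a transcription factor of S phase entry (7 UMIs in the 26 cells, log2 ratio 6.05), and *CDK2* (11 UMIs, 2.86) were under the 200 UMI minimum. The list of quiescence genes and cell cycle brakes was lower, at 0.684-fold (0.600 to 0.777), with *PIK3IP1* at -2.05, *BTG1* at -1.13 and *TXNIP* at -1.08. Of its inhibitors of cyclin-dependent kinases, *CDKN1A* stood at 2.21 (27 UMIs in the 26 cells), *CDKN2C* at 3.04 (9 UMIs), *CDKN2D* at 1.37 (24 UMIs) and *CDKN1B* at -0.85 (12 UMIs). *CDKN2B*, a further such inhibitor outside the list, had a UMI in 14 of the 26 cells, 4 of the 54 and 145 of the 1338. These shares are without thinning, and the 26 cells were deeper. In pooled CPM *CDKN2B* was at 5.13-fold in the 26 cells (31 UMIs) and 0.645-fold in the 54 (5 UMIs).

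Cytotoxic genes as a group were slightly lower in the 26 cells, at 0.828-fold (0.788 to 0.869), with 1 of 15 at least 2-fold higher and 1 at least 2-fold lower. They were not uniform. *EOMES* (log2 ratio 2.08, in 10 of the 26 cells) and *GZMA* (1.45) were higher, *GNLY*, which encodes the antimicrobial granulysin (-1.54), and the chemokine *CCL5* (-0.95) were lower, and *NKG7* (-0.10) and *GZMB* (-0.31) were near the level of the other *GZMB*+ cells. The MHC class II genes *HLA-DRA* (2.78, with 41 UMIs in 7 cells) and *CD74* (1.94) were higher. In the 54 cells the cytotoxic list stood at 1.01-fold.

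Naive genes and cytokine receptors were lower as well. Cytokine receptors were 0.451-fold (0.326 to 0.609), with *IL7R*, the interleukin 7 receptor of long-lived T cells, at 94.5 against 356 CPM (-1.91). *KLRB1*, a lectin-like receptor of Th17 and innate-like cells, stood at -2.31. The naive list was 0.175-fold (0.102 to 0.280), on 17 UMIs in 3 of the 26 cells, and 0.0854-fold without the cell that held the most. It was 0.385-fold with no condition on *CD79A*, 0.295-fold with no upper limit on genes, 0.296-fold without the top 6% of doublet scores and 0.113-fold without T cells that had B cell or monocyte UMIs. *CD7* had a UMI in 0 of the 26 cells, which allows up to 11.5%, and in 265 of the 1338. The 54 cells were lower in the same lists by less, at 0.768-fold (0.618 to 0.943) for cytokine receptors and 0.688-fold (0.548 to 0.853) for naive genes.

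**Figure D4:**
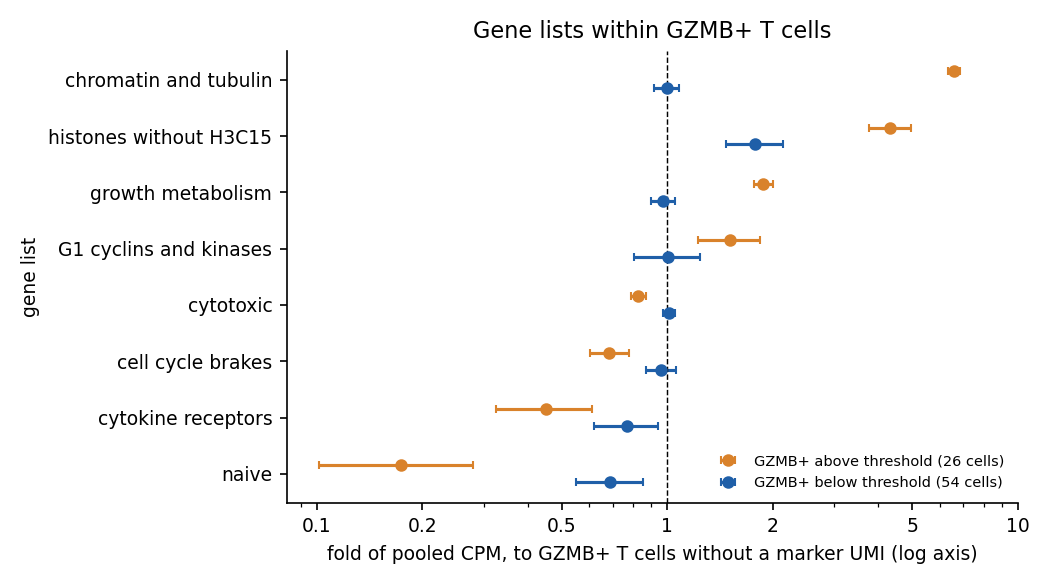
Ratio of pooled CPM (log axis) to *GZMB*+ T cells without a marker UMI for 8 gene lists, in *GZMB*+ cells above and below the threshold, with points for the ratio and lines for its exact 95% interval. Above the threshold the chromatin and tubulin list is at 6.57 and the naive list at 0.175, while below it all lists but histones, naive genes and cytokine receptors have intervals that hold 1.

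Histone RNA was very uneven. *H3C15*, a histone H3 gene, had 1549 UMIs in 12 of the 150 cells, and in the other T cells 35 UMIs in 34 cells with at most 2 per cell. A set of 4 cells held nearly all of it, with 739, 377, 293 and 115 UMIs, or 47.7, 24.3, 18.9 and 7.42% of the total, and the next cell held 7. All 4 were *GZMB*+ and above the threshold, with S phase shares of 40.1 to 47.6% of their list UMIs against a median of 63.6% in the other 26 cells above it. Within *GZMB*+ cells the histone list was 32.5-fold higher above the threshold and 4.33-fold (3.75 to 4.97) without *H3C15*. Below the threshold it was 1.78-fold (1.47 to 2.13). Histone genes have near-identical copies, so the assignment of these UMIs to single genes is uncertain.

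By surface tags, the cells with a marker UMI had more CD8 than the other T cells as a whole, as did *GZMB*+ cells without a marker UMI. A 2-component mixture placed the thresholds at 146 CD4 and 504 CD8α tag UMIs per cell. Of the 150 cells, 65 were CD4-high CD8-low (43.3%, interval 35.3 to 51.7%), 74 CD4-high CD8-high (49.3%, 41.1 to 57.6%), 11 CD4-low CD8-high (7.33%, 3.72 to 12.7%) and 0 low for both. In the other T cells these shares were 73.4, 21.9, 4.17 and 0.482%. They depend on the thresholds: with both set at the median of the kept cells, 10% of the 150 cells were CD4-high CD8-low, 51.3% CD4-high CD8-high and 30% CD4-low CD8-high. The median CD8α tag was 567.5 UMIs in the cells with a marker UMI, 709 in those above the threshold and 299 in the other T cells. The median CD4 tag was 471.5 UMIs in the cells with a marker UMI against 420 in the other T cells. Among *GZMB*+ cells alone the median CD8α tag was 700.5 UMIs above the threshold, 572 below it and 567 without a marker UMI.

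Seen from the compartments, 1.20% of CD4-high CD8-low T cells (65 of 5399), 4.43% of CD4-high CD8-high (74 of 1669) and 3.50% of CD4-low CD8-high T cells (11 of 314) had a marker UMI, and 8, 20 and 2 of these cells were above the threshold. Median depths in the 3 compartments were 2962, 3902 and 3459 gene UMIs, and the part of depth in these shares was not tested. Above the threshold 66.7% of the cells (20 of 30) were high for both tags, and below it 45% (54 of 120). *GZMB* was found in 29 of the 65 CD4-high CD8-low cells, 42 of the 74 CD4-high CD8-high cells and 9 of the 11 CD4-low CD8-high cells, and *CCR7* in 31, 19 and 1. Among *GZMB*+ cells alone, 26.9, 65.4 and 7.69% of the 26 cells above the threshold (7, 17 and 2) lay in the 3 compartments. Of the 54 below it these were 40.7, 46.3 and 13.0% (22, 25 and 7), beside 41.8, 42.8 and 14.6% of the *GZMB*+ cells without a marker UMI.

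**Figure D5:**
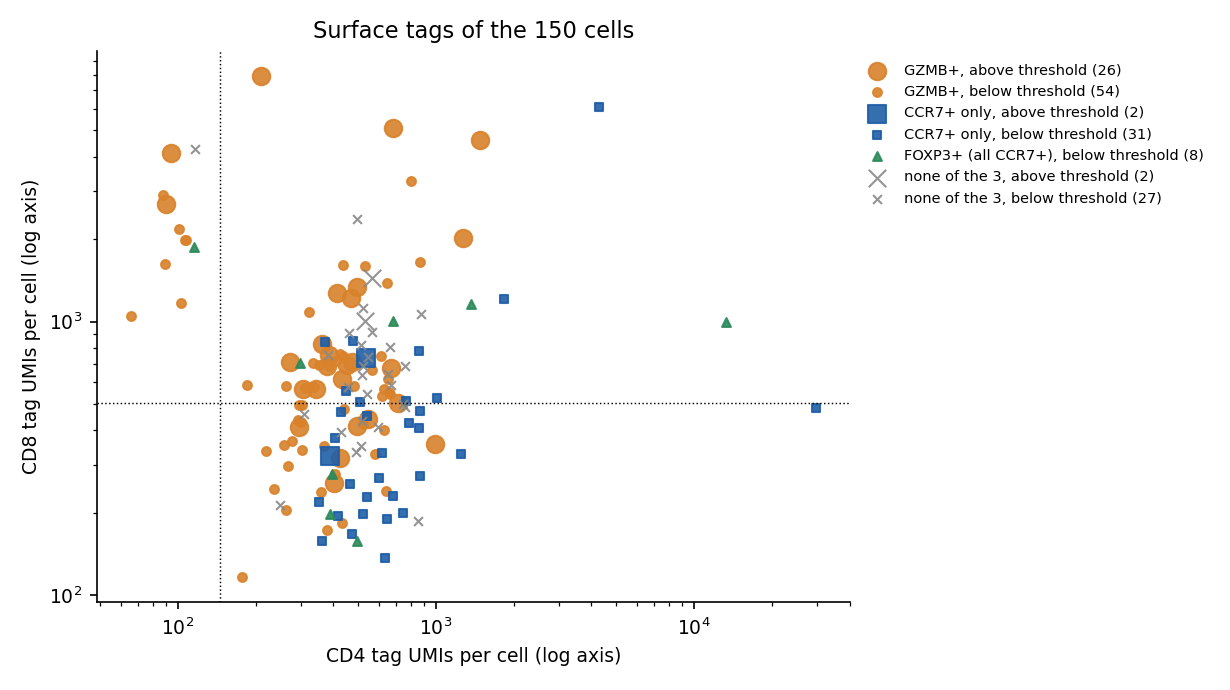
CD8α against CD4 tag UMIs per cell (both log axes) for the 150 cells, with symbols for the kind of cell, large for cells above the threshold, and dotted lines at the tag thresholds of 146 and 504. Of the 30 cells above the threshold, 20 lie in the upper right field, and 11 of all 150 cells in the upper left.

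Receptor V segments, which name a family of chains and not a clone, were read in part of the cells. The gene list held 23 TRAV, 9 TRBV, 1 TRGV and 1 TRDV segments, and a TRAV segment was found in 82 and a TRBV segment in 35 of the 150 cells. Shares of cells with a segment are without thinning, and the cells with a marker UMI were deeper. *TRGV10*, of the γ chain locus, had UMIs in 22.7% (34 of 150), against 5.71% of the other T cells. Among *GZMB*+ cells it was in 10 of the 26 above the threshold (38.5%, interval 20.2 to 59.4%). In those without a marker UMI it was in 23.1%, which that interval holds. *TRAV24* was found in 5 of those 26 cells (19.2%, interval 6.55 to 39.4%) and in 3.74% of *GZMB*+ cells without a marker UMI. *TRBV28* was found in 15 of the 150 cells (10%) and in 3.34% of the other T cells. These 3 of the 34 segments were picked for their shares after these were seen, and *TRAV22*, the most frequent TRAV segment beside *TRAV23DV6*, stood at 12% against 10.7% in the other T cells.

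RNA of other cell types was sparse. Genes of the B cell list were found in 14 of the 150 cells (9.33%) and in 3.80% of the other T cells, with at most 12 UMIs in a cell, all *IGKC*, and *MS4A1* at 0. Monocyte genes were found in 8 cells (5.33%) and in 4.53% of the other T cells, with at most 2 UMIs and *LYZ* at 0. The NK list was found in 32 cells (21.3%) and in 8.39% of the other T cells, with *NCAM1* at 0. These shares are without thinning, and the 150 cells were deeper than the other T cells. In pooled CPM the B cell list stood at 35.9 against 14.9 and the NK list at 57.4 against 41.9. The monocyte list stood at 10.8 against 32.3 CPM, with at most 324 UMIs in a cell among the other T cells. In *GZMB*+ T cells without a marker UMI the NK list stood at 123 CPM. Platelet and progenitor genes had 0 UMIs in the 150 cells. The Scrublet doublet score was in the top 6% of all kept cells for 10 of the 150 (6.67%), for 0 of the 30 above the threshold and for 4.51% of the other T cells.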

How the data were processed

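The 2 libraries were processed by the authors with Cell Ranger 3.1.0, STAR 2.5.1b and Seurat 3.1.3, as listed in the submitters' processing notes, and reads were aligned to Macaca_fascicularis_5.0. The deposited values are raw, whole-number UMI counts of 29324 genes and of the tags in each barcode, not normalized by the authors, and no coordinates or sequences were used. The cells and the gene lists were chosen with earlier results of these data known.

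Summed UMIs of a group were given as CPM with exact Poisson intervals. Ratios took the exact binomial interval of the UMI split, with a group at 0 set to 3 UMIs. Thinning to 2200 UMIs was without replacement. Tag thresholds came from 2-component Gaussian mixtures on log10(UMIs + 1). Scrublet in scanpy 1.11.5, at an expected 6%, called 0 of 8830 cells, so doublets were not removed and only its scores were used. Named genes are those of the lists, the 10 highest and 10 lowest ratios outside them (at least 50 UMIs, in at least 10% of cells of the higher group) and the 5 each way between *GZMB*+ and *CCR7*+ cells (at least 20 UMIs). *H3C15*, *TRGV10*, *TRAV24*, *TRBV28* and *TRAV22* were named after their values were seen, and the histone list holds the 22 genes named by cluster or as H1. List genes without a symbol in the file, such as *GZMH* and *PCLAF*, were not used here, and the values of some list genes are not reported here. Python 3.11.15, numpy 2.4.6, pandas 2.3.3, scipy 1.17.1 and scikit-learn 1.9.0 were used. The ratios of pooled CPM and their intervals were tested on simulated counts. Thinning, the tag thresholds and the cell cycle threshold were not tested in this way. Alternatives on the rule, filters, thinning, tags, depth and doublets were tried.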

Additional observations from a re-analysis of the deposited data

Results flagged for a closer look

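Kept cells with UMIs of both *CD3E* and *CD79A*, which the rule leaves out, held 33 marker UMIs in 15 cells, with 1 to 12 per cell. Of these 15 cells, 6 lay above the threshold of 2204 CPM, 5 had *GZMB*, 4 of them above the threshold, 8 had *CCR7* and 2 *FOXP3*, and 12 had no UMI of the B cell list, in which *CD79A* itself is not counted.

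Barcodes with over 4000 genes, which the filter leaves out, held 61 marker UMIs in 5 of 7 barcodes, with 3 to 31 per barcode. Of the 5, 4 lay above the threshold and 2 had *GZMB*, both above it. They had 19999 to 35498 gene UMIs, 4 had at least 3 UMIs of the B cell list, and 2 had *CD3E* and no *CD79A*.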

How the results depend on the processing

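Of 15 alternatives, the one without the limit of 4000 genes and the one without the condition on *CD79A* were chosen after seeing the data. Over 16 results, 107 values moved by less than their counting interval (counts by less than 1.5 times) and 29 by more, and of the values on *GZMB*+ cells 51 and 13. A minimum of 2 marker UMIs left 39 cells, 20 above the threshold, with a median of 7378 UMIs, *GZMB* in 60.5% and *CCR7* in 7.89% of thinned cells, 1925 CPM of *GZMB* and 55.4 of *CCR7* (main 1811 and 151), 3436 and 3941 CPM of the S phase and the G2 and mitosis lists, 33.3% CD4-high CD8-low and 59.0% CD4-high CD8-high cells, and 1941 genes at least 2-fold higher (main 853, lower 641). Without cells with B cell or monocyte UMIs, *GZMB* was at 2085 CPM and the lists at 1777 and 1526. Without the top 6% of doublet scores the lists were at 2036 and 1915. As a mean over cells, *GZMB* was at 2006 and the lists at 1373 and 1343. Without thinning *CCR7* was in 34%. With tag thresholds at the medians, 10% were CD4-high CD8-low and 30% CD4-low CD8-high. With no upper limit on genes the G2 and mitosis list was at 2023, and with no condition on *CD79A* it was at 1891 and *GZMB* at 1687. Genes at least 2-fold higher were 5700 of 15124 without the UMI minimum and 428 against other T cells of like depth (391 lower). In *GZMB*+ cells above the threshold, the naive list moved from 0.175-fold to 0.385 with no condition on *CD79A*, 0.295 with no upper limit on genes and 0.296 without the top doublet scores. The cause was not tested. No paired analysis was possible because 1 animal gave 1 library of each kind.

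Depth limits what can be said of *FOXP3* and of single genes in 26 or 30 cells, most of the 150 cells rest on 1 marker UMI, the tags were enriched for by beads, and 1 animal allows no statement on others.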
